A study of Schmidtea mediterranea with 2 samples.

Results

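The genes described here are those whose transcripts were concentrated in the trunk cells of the planarian Schmidtea mediterranea that carry SMESG000019976.1, called the anchor gene below. They were chosen in the control library, from cells with at least 200 detected genes. Counts of unique molecular identifiers (UMIs, each standing for 1 captured transcript) were summed over positive cells, with at least 2 UMIs of the anchor, and over cells with 0. Among the 10524 genes with at least 50 UMIs in that library, the 100 with the highest enrichment were taken, of 22016 features in all. Enrichment was the CPM of a gene (its count per 1000000 UMIs of the same cells) plus 10 in positive cells, divided by the same in cells with 0. These 100 genes, the anchor included, are called the members. They were chosen by these measured ratios, which are given as a description with no test.

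There were 2 libraries, both from CIW4 animals (the genotype given by the labels). One came from animals treated with a control RNA interference (RNAi) and the other from animals with RNAi of foxA. Trunks of 50 animals were pooled for each library, and nucleated cells that took up a viability dye were sorted and put through droplet-based 3′ end sequencing. The deposited libraries held 6056 control cells with 4329019 UMIs and 6798 foxA cells with 7852495 UMIs. With 1 library per condition there is no replicate check and no test between them, and all 95% intervals below cover counting error only.

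Planarians replace their tissues from dividing stem cells, whose daughters take up a fate under the control of transcription factors. foxA encodes a forkhead transcription factor that in planarians is known for its role in making the pharynx, the muscular feeding tube of the trunk. A set of genes that share a cell class can be lower in a tissue either because the cells are fewer or because each cell makes less of the transcripts, and single-cell counts hold both quantities. The feature tables pair no identifier with a gene name, so no member is given a function and no cell type is named. The level of foxA itself is not analysed here.

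Positive cells made up a smaller share of the foxA library. They numbered 145 of 5978 kept control cells, or 2.43% (2.05% to 2.85%), and 69 of 6781 kept foxA cells, or 1.02% (0.793% to 1.29%). The log2 ratio of these shares, foxA over control, was -1.25 (-1.69 to -0.83), which is 2.38-fold fewer. A further 21 control cells and 14 foxA cells had exactly 1 anchor UMI. By this definition, only those cells could hold anchor UMIs outside the positive cells.

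The libraries differed in depth, with medians of 563 UMIs per control cell and 904 per foxA cell, so a cell of the same make-up had more chances to reach 2 anchor UMIs in the foxA library. At an equal 400 UMIs drawn from each cell, which excluded 1438 shallower control cells (24.1%) but 0 foxA cells, the shares were 2.27% (103 of 4540 cells) and 0.841% (57 of 6781 cells), a log2 ratio of -1.43 (-1.93 to -0.95). The foxA share was thus also the lower one at equal depth. Leiden clustering of all kept cells gave 28 clusters, and 140 of the 145 positive control cells and 64 of the 69 positive foxA cells lay in the same one, cluster 13. With 185 control cells (3.09%) and 96 foxA cells (1.42%), the shares of that cluster had a log2 ratio of -1.13 (-1.50 to -0.76). In the cells of all other clusters together, 0.259% of control cells and 0.179% of foxA cells had any anchor UMI. Among the other clusters with at least 50 cells in a library, 11 of 22 for control cells and 11 of 21 for foxA cells had no such cell. The highest share of cells with an anchor UMI there was 1.56% for control cells and 1.82% for foxA cells, against 100% of positive cells by the rule.

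**Figure D1:**
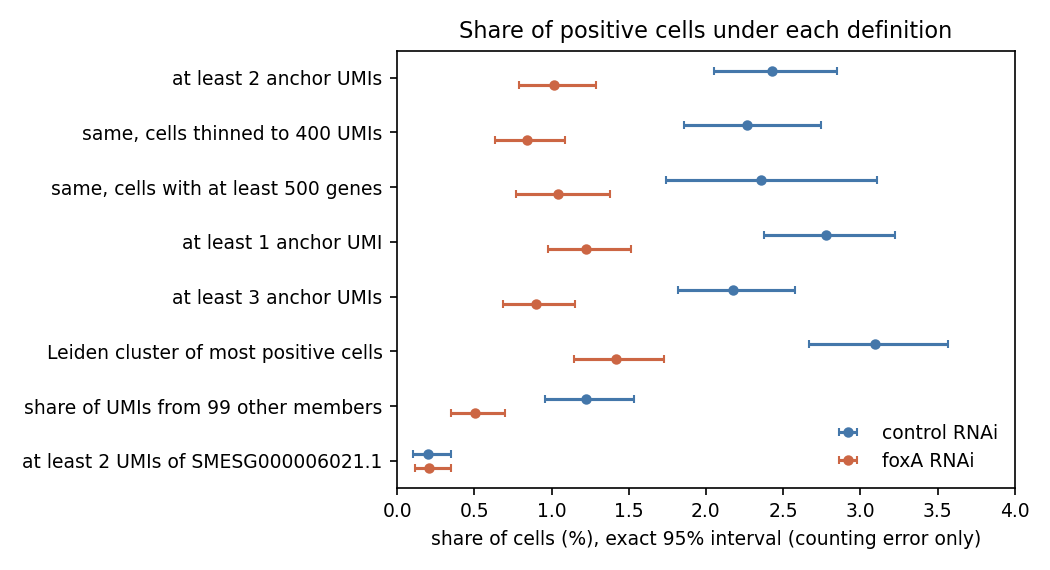
Share of positive cells in percent, with exact 95% intervals for counting error, in the control library (blue) and the foxA library (orange) under 8 ways of setting which cells are positive. The foxA share lies below the control share in the upper 7, for example 1.02% against 2.43% in the first, and the shares set by SMESG000006021.1 are 0.201% and 0.206%.

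The members kept their place in the positive cells that remained in the foxA library, which the rule had not used. When the same rule was applied to the foxA library, 82 of its 100 genes were members, which is 82.0% of each list. Of the 96 members with at least 50 foxA UMIs, 95 ranked among the first 200 of 12061 eligible genes and the lowest had rank 214. Their median ratio between positive and negative foxA cells was 29.4, from 7.57 to 1286, against a median of 0.576 over all eligible genes. The first in both lists was the anchor. The last members taken were SMESG000081036.1 and SMESG000005776.1, with control ratios of 14.8 and 14.6, and the first genes left out were SMESG000054074.1 and SMESG000036666.1, with 14.6 and 14.2. The threshold therefore fell in a smooth run of ratios and marks no gap.

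The share of a cell's UMIs that came from the members was alike in the positive cells of both libraries. The 99 members other than the anchor supplied a median of 14.9% of the UMIs of a positive control cell (quartiles 10.4% and 17.8%) and 14.9% of those of a positive foxA cell (quartiles 10.4% and 17.4%). In cells with 0 anchor UMIs the medians were 0% and 0.0941%. After thinning to 400 UMIs the medians in positive cells were 14.2% for control cells and 15.0% for foxA cells.

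**Figure D2:**
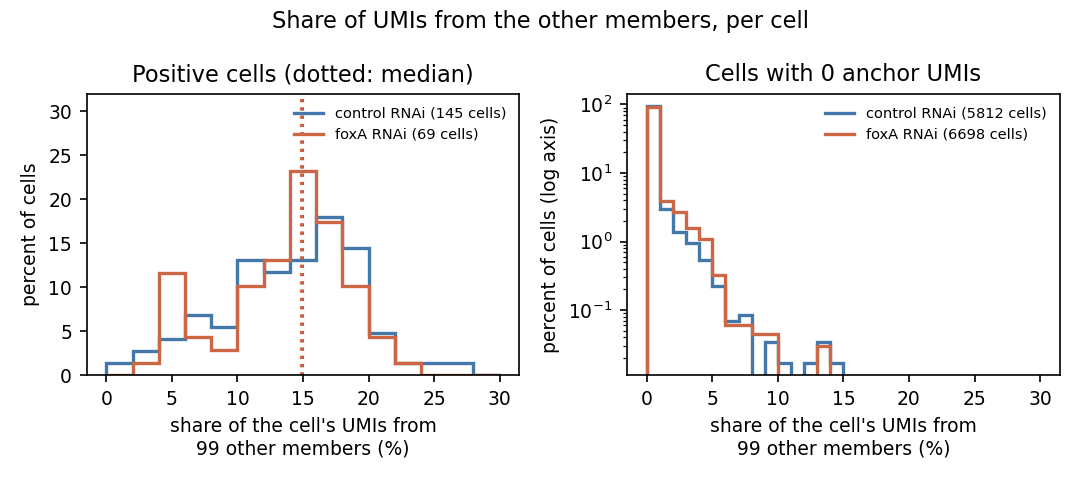
Percent of cells (vertical axis) by the share of each cell's UMIs from the 99 members other than the anchor (horizontal axis, in percent), for positive cells on the left and for cells with 0 anchor UMIs on the right, where the vertical axis is logarithmic. The medians of the 145 control and 69 foxA positive cells, dotted, are both 14.9%.

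Single members were seen in part of the positive cells at this depth. After thinning, the median member other than the anchor had a UMI in 27.2% of positive control cells and in 28.1% of positive foxA cells, against 0.475% and 0.581% of the cells with 0 anchor UMIs. For most members the number of positive control cells with a UMI was what their total UMIs spread at random over the cells would give, with a median ratio of 1.01 (quartiles 0.957 and 1.06). In the foxA library that ratio had a median of 0.926.

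Gene by gene, the level within positive cells differed little between the libraries. Levels were compared as log2 of (CPM + 1) in positive foxA cells over (CPM + 1) in positive control cells. Of the 98 members with at least 50 UMIs in the positive cells of both libraries together, 2 were lower past 1.5-fold, where the background over all 599 genes with that many UMIs was 12.2%, and 10 were higher past 1.5-fold, where the background was 11.5%. Both background shares include the members. The median difference of the members was 0.16 on the log2 scale (34 members below 0 and 64 above) and that of all 599 genes was 0.07. The control levels of the members had entered the rule, so a chance excess there would make them look lower in foxA cells. The 100 genes that the rule chose in the foxA library, where such an excess would act the other way, had a median of 0.22.

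The small positive median changed with the cells that were taken. The deepest positive control cell had 7829 UMIs, 7.63% of all UMIs of the positive control cells, of which 1.19% came from the 99 other members. It lay in cluster 6. The deepest positive foxA cell had 2357 UMIs. Without that control cell the median difference of the members was 0.06, and over the positive cells of cluster 13 it was 0.09. The background shares changed too: over the positive cells of cluster 13 they were 8.35% lower and 6.99% higher of 515 genes. There 3 of 97 members were lower past 1.5-fold and 5 higher. Over all cells of cluster 13, which adds cells with fewer than 2 anchor UMIs, the median difference was -0.06. It was -0.02 over thinned cells and -0.05 when CPM was averaged over cells instead of taken from the sum. Among cells with at least 500 genes, which kept 48 positive control cells and 49 positive foxA cells, it was 0.53, against 0.21 over all genes compared. There 37 of 82 members were higher past 1.5-fold, where the background was 26.3%, and 1 was lower. Whether that control droplet held more than 1 cell was not tested.

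**Figure D3:**
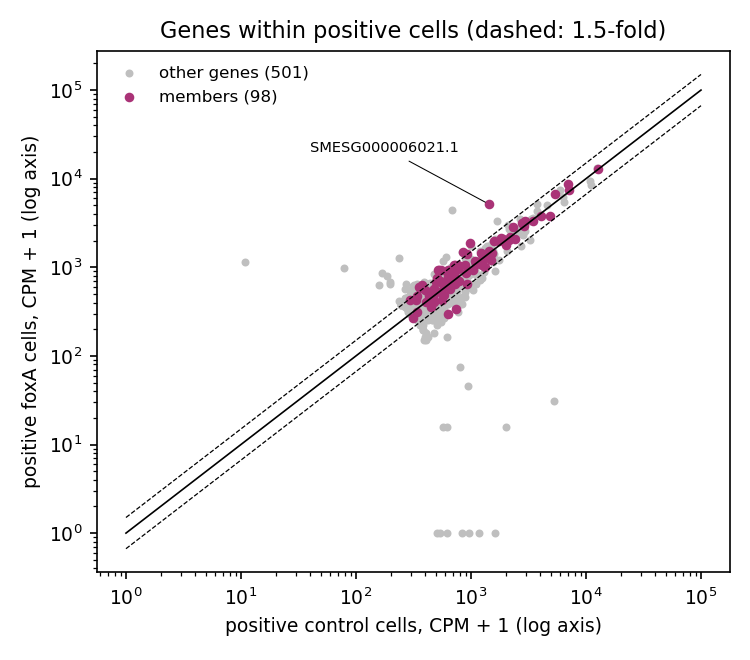
CPM + 1 of each gene in the summed positive control cells (horizontal, log axis) and positive foxA cells (vertical, log axis) for 98 members (purple) and 501 other genes (grey) with at least 50 UMIs there. The solid line marks equal levels and the dashed lines 1.5-fold. Of the members, 2 lie below the dashed band and 10 above it, with SMESG000006021.1 the farthest above.

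Over the whole libraries, many members were lower in the foxA library. Levels were compared as log2 of (CPM + 1) in all kept foxA cells over (CPM + 1) in all kept control cells. Of the 97 members with at least 100 UMIs over both libraries, 34 were lower past 1.5-fold, where the background over 11477 genes was 6.33%, and 3 were higher past 1.5-fold, where the background was 7.03%. In all, 71 of the 97 lay below 0. The median of the members was -0.28 and that of all 11477 genes was 0.08. The median depended on how far down the ranking the list reached: it was -0.79 for the first 50 members and -0.0841 for the first 200. A floor of 200 control UMIs in the rule, which changes which genes are members, gave 0.0235, with 9 genes lower past 1.5-fold. The other 3 members had fewer than 100 UMIs. A member had to be counted in the control library to be chosen, and the floor of 50 UMIs applied to that library alone.

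These whole-library differences were set against what the changed share of positive cells alone would give. Cells were put into 3 strata by anchor UMIs (0, 1, at least 2). For each gene the control CPM of every stratum was weighted by the share of foxA UMIs in that stratum. Positive cells held 2.39% of control UMIs and 0.859% of foxA UMIs, a log2 ratio of -1.48. Of this, -1.25 was the share of cells and -0.22 the lower number of UMIs per positive cell relative to the mean of its library. That mean was 0.984 of the library mean in positive control cells and 0.844 in positive foxA cells. The second part also rested on the deepest control cell: it was -0.12 without that cell and -0.05 when positive cells outside cluster 13 were set aside. A gene found in positive cells alone, at an unchanged level there, would thus have a log2 ratio near -1.48.

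For the 97 members the median ratio from the strata alone was -0.59 (range -1.45 to -0.26), against the observed -0.28. The observed ratio lay within 1.5-fold of it in 74 members, was higher by more than 1.5-fold in 20 and lower by more than 1.5-fold in 3. Across these 97 genes the observed ratio and the ratio from the strata had a Pearson r of 0.76 and a Spearman rho of 0.73. The genes are not independent replicates, and both values share the control counts.

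**Figure D4:**
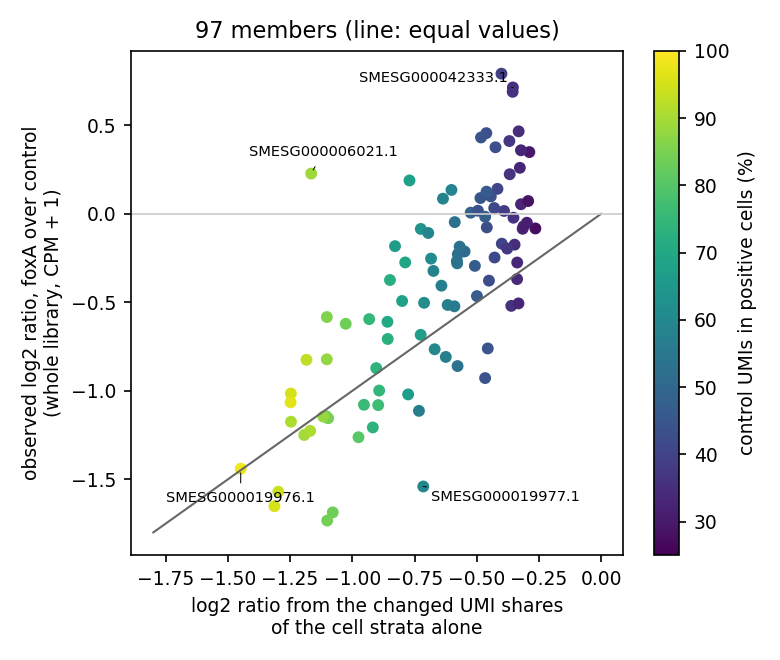
Observed whole-library log2 ratio of 97 members, foxA over control (vertical), against the log2 ratio that the changed UMI shares of the 3 cell strata give alone (horizontal), coloured by the percent of the gene's control UMIs in positive cells. Members with at least 75% of these UMIs in positive cells (green to yellow) have a median gap of -0.04 to the line of equal values. Those with under 50% (dark) have a median gap of 0.39 and lie mostly above it. SMESG000006021.1 lies farthest above the line. SMESG000023221.1 and SMESG000012330.1, also concentrated in positive cells, lie below it by more than 1.5-fold.

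How far a member was lower followed how much of it lay in positive cells. The 21 members with at least 75% of their control UMIs in positive cells had a median observed ratio of -1.15 and a median ratio from the strata of -1.12. Of these, 19 were lower past 1.5-fold and 0 higher. In the same concentration class, 23 members could be compared within positive cells, with a median of -0.03, 0 lower past 1.5-fold and 1 higher. The 34 members with 50% to 75% had a median observed ratio of -0.45 against -0.70 from the strata, and 13 of them were lower past 1.5-fold. The 42 members with under 50% had a median of 0.01 against -0.38 from the strata, with 2 lower and 3 higher past 1.5-fold. Over all 11477 genes compared between the libraries, 6.33% were lower and 7.03% higher, so the counts of this last class were near the background. Within positive cells the background over 599 genes was 12.2% lower and 11.5% higher. The share of control UMIs in positive cells and the observed ratio had a Pearson r of -0.74 and a Spearman rho of -0.72 over the 97 genes, again as a description of 2 libraries.

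The anchor defined the positive cells, so its share of UMIs there and its ratio from the strata are set by the rule and are given as a description. It had 1314 UMIs, or 305.9 CPM, in the control library and 879 UMIs, or 112 CPM, in the foxA library. Its whole-library log2 ratio was -1.44 and the ratio from the strata was -1.45. A positive control cell held from 2 to 30 anchor UMIs with a median of 7, and a positive foxA cell from 2 to 53 with a median of 10. Scaled to all UMIs of the positive cells, this was 12610 CPM in control cells and 12850 CPM in foxA cells, a log2 difference of 0.03 (-0.10 to 0.15). These levels came from cells selected for at least 2 UMIs of the anchor itself. In cells set instead by the share of UMIs from the other 99 members, its difference was -0.0038, and over all cells of cluster 13 it was -0.30. The share of the other members leaves out the anchor's counts but still depends on the anchor. The anchor had chosen those members, and the cut was the median share in the positive control cells.

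The next 4 members by control ratio were likewise mostly counts of positive cells. SMESG000024922.1 went from 51.2 to 16.6 CPM over the whole libraries, a log2 ratio of -1.57, and stood at 2018 CPM in positive control cells and 1767 CPM in positive foxA cells. SMESG000048775.1 went from 48.2 to 20.8 CPM, a log2 ratio of -1.17, with 1833 and 2138 CPM in positive cells. SMESG000015083.1 went from 37.0 to 11.1 CPM, a log2 ratio of -1.65, with 1482 and 1203 CPM in positive cells. All 3 had over 90% of their control UMIs in positive cells, and the interval of each difference within positive cells included 0. SMESG000067691.1 went from 54.5 to 24.1 CPM, a log2 ratio of -1.14, and had 1891 and 2094 CPM in positive cells.

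Of the members ranked 7 to 10, SMESG000050503.1 had a whole-library log2 ratio of -1.25 and a difference of -0.23 within positive cells (-0.67 to 0.19). SMESG000051013.1 had -1.21 over the libraries and -0.12 within positive cells (-0.35 to 0.10). SMESG000062786.1 had -1.08 and -0.21 (-0.52 to 0.09), and SMESG000012330.1 had -1.69 and -0.39 (-0.83 to 0.04). These 4 were each lower past 1.5-fold over the libraries and within 1.5-fold in positive cells. For SMESG000012330.1 the difference within positive cells changed with the cells taken. It was -0.65 after thinning, which is past 1.5-fold, -0.09 among cells with at least 440 UMIs and 0.23 among cells with at least 500 genes.

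The lowest whole-library ratios among the members were those of SMESG000023221.1 and SMESG000012330.1. SMESG000023221.1 had 112 control UMIs (26.1 CPM) and 56 foxA UMIs (7.14 CPM), a log2 ratio of -1.73, against -1.10 from the strata. In positive cells it stood at 916 CPM and 639 CPM, a difference of -0.52 (-1.08 to 0.01). SMESG000012330.1 had 37.9 and 11.1 CPM, against a ratio from the strata of -1.08. With no CPM added, the whole-library intervals were -2.36 to -1.39 for SMESG000023221.1 and -2.17 to -1.39 for SMESG000012330.1. Both lay below the ratios from the strata, but those had 1 CPM added and no interval of their own. The genes were also picked for their low ratios, which the intervals do not allow for. Whether they fell further than the strata alone give was thus not tested. Outside positive cells SMESG000023221.1 supplied 4.19 CPM in control cells and 1.66 CPM in foxA cells, and SMESG000012330.1 supplied 6.29 and 2.42 CPM. Both intervals within positive cells included 0.

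SMESG000006021.1, ranked sixth, was the exception among the first 10. It had 165 control UMIs (38.4 CPM) and 354 foxA UMIs (45.1 CPM), a whole-library log2 ratio of 0.23, where the strata alone gave -1.17. Within positive cells it stood at 1433 CPM in the control library and 5153 CPM in the foxA library, a log2 difference of 1.85 (1.56 to 2.13), the highest of the 98 members. That interval treats UMIs as independent, but they came from few cells. It had a UMI in 12 of the 145 positive control cells, 8.28% (4.35% to 14.0%), and in 12 of the 69 positive foxA cells, 17.4% (9.32% to 28.4%).

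The gene was seen in few positive cells, in most of them at several UMIs. The 12 control cells held 1 to 27 of its UMIs with a median of 12, and the 12 foxA cells held 6 to 106 with a median of 19, while the other positive cells held 0. Spread at random, its UMIs would have reached far more cells: the number of positive cells with a UMI was 0.146 of that for control cells and 0.178 for foxA cells. It made up 2.41% of the UMIs of its positive control cells and 3.72% of those of its positive foxA cells. Without the foxA cell with 106 UMIs, the difference within positive cells was 1.45.

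Positive cells with SMESG000006021.1 were thus 12 of 5978 control cells and 12 of 6781 foxA cells, a log2 ratio of shares of -0.18 (-1.46 to 1.10). Positive cells without it were 133 and 57, a log2 ratio of -1.40 (-1.88 to -0.95). The difference between these 2 ratios was not tested. After thinning, the gene was seen in 8 of 103 positive control cells, 7.77% (3.41% to 14.7%), and in 12 of 57 positive foxA cells, 21.1% (11.4% to 33.9%). Outside positive cells it had 18 UMIs in 7 control cells and 7 UMIs in 4 foxA cells. In the cells that carried it, the other members without the anchor supplied 8.06% of UMIs in control cells and 8.47% in foxA cells, against 11.8% and 13.3% in the positive cells without it.

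**Figure D5:**
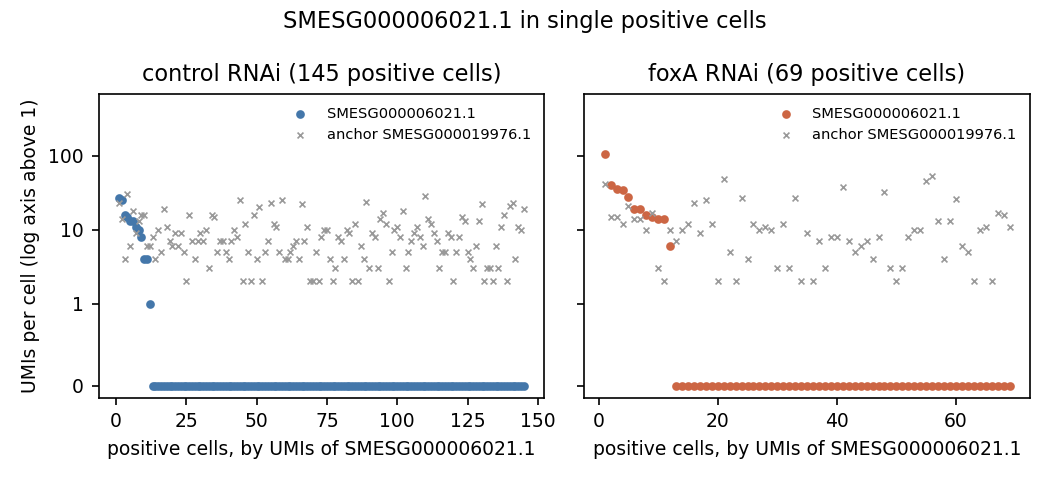
UMIs of SMESG000006021.1 (filled points) and of the anchor (grey crosses) in each positive cell of the control library (left, 145 cells) and the foxA library (right, 69 cells), ordered by UMIs of SMESG000006021.1 (the vertical axis is logarithmic above 1). In each library 12 cells carry the gene and the rest hold 0, while every cell holds at least 2 anchor UMIs.

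A few other members were also seen in few of the positive cells, and had UMIs in other cells too. SMESG000081649.1, singled out after its values were seen, had 49 UMIs in 5 positive control cells and 38 UMIs in 1 positive foxA cell. Outside positive cells it had 34 UMIs in 12 control cells and 102 UMIs in 9 foxA cells. SMESG000051015.1 had 76 UMIs in 22 positive control cells, 22 of them in 1 cell, and 23 UMIs in 11 positive foxA cells. Outside positive cells SMESG000051015.1 had 57 UMIs in 18 control cells and 85 UMIs in 15 foxA cells. It had the lowest difference within positive cells, -1.11 (-1.86 to -0.43), an interval that again treats its UMIs as independent. Neither gene had a UMI in any of the 24 positive cells with SMESG000006021.1. Both were seen in few positive cells, so little or no overlap could also arise at random, and this was not tested. The cells with SMESG000006021.1 were also shallower, with medians of 467.5 UMIs in control and 630.5 in foxA cells. Those of all positive cells were 564 and 867. Of the positive cells with SMESG000081649.1, 4 of the 5 control cells and the 1 foxA cell also had SMESG000051015.1. The second lowest was SMESG000027798.1, at 634 and 297 CPM in positive cells, a difference of -1.09 (-1.89 to -0.35). Its whole-library ratio was -0.08, with 43.1% of its control UMIs in positive cells. The second highest was SMESG000022897.1, at 985 and 1871 CPM in positive cells, a difference of 0.93 (0.54 to 1.32), with a whole-library ratio of 0.07. The intervals of SMESG000027798.1 and SMESG000022897.1 likewise treat UMIs as independent. Genes named as the lowest or highest were picked by value, which no interval here allows for. Some of these differences depended on which cells were taken. Over all cells of cluster 13, SMESG000051015.1 had -0.0651 and SMESG000022897.1 had 0.48. In cells set by the share of the other members, they had -0.0718 and 0.24, all 4 values within 1.5-fold. Over the positive cells of cluster 13, they had -1.36 and 0.77.

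Many members had much of their counts outside positive cells, most often in 1 other cluster. For each member the UMIs outside both positive cells and cluster 13 were assigned to clusters, and cluster 5 held the most for 77 of the 100 members in the control library and for 74 in the foxA library. This held for members that were lower and for those that were not. Of the 97 members compared over the whole libraries, 74 had more of these control UMIs in cluster 5 than in any other cluster. Of the 74, 23 were lower past 1.5-fold, as were 11 of the other 23. The largest part was not always a majority: for SMESG000042333.1, cluster 5 held 32.2% of these control UMIs. The leading genes of cluster 5 were SMESG000002628.1 and SMESG000025209.1, neither of them a member. It comprised 324 control cells (5.42%) and 540 foxA cells (7.96%), and its shares had a log2 ratio of 0.56 (0.35 to 0.76). It thus held a larger share of the foxA cells while cluster 13 held a smaller one. Within the cells of cluster 5 that were not positive, the 59 members with at least 50 UMIs had a median difference of 0.01, against 0.13 over the 3857 genes compared. Of these members 11 were lower past 1.5-fold, where the background was 6.97%, and 5 higher, where the background was 16.7%.

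In sum over the 100 members, positive cells supplied 3108 CPM in the control library and 1242 CPM in the foxA library. All other cells supplied 2879 and 4165 CPM, of which the non-positive cells of cluster 5 gave 1430 and 2116. The total was 5987 CPM in the control library and 5407 CPM in the foxA library, so positive cells gave 51.9% of the members' UMIs in the former and 23.0% in the latter. When the strata were positive cells plus the clusters of all other cells, the median size of the gap between the observed ratio and that from the strata narrowed from 0.34 to 0.23, and 86 of 97 members lay within 1.5-fold instead of 74.

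The members with the highest whole-library ratios were SMESG000020341.1 and SMESG000042333.1. SMESG000020341.1 went from 179.9 to 312 CPM, a log2 ratio of 0.79, of which positive cells gave 69.8 CPM in the control library and 28.7 CPM in the foxA library, while other cells gave 110 and 284 CPM. Within positive cells it stood at 2925 and 3341 CPM. SMESG000042333.1 went from 475 to 780.3 CPM, a log2 ratio of 0.71, with 168 and 64.3 CPM from positive cells and 307 and 716 CPM from other cells. In positive cells its difference was 0.09 (-0.08 to 0.25). In the foxA library 54.2% of its UMIs outside positive cells and cluster 13 lay in cluster 19, led by SMESG000017804.1, which held 20 control cells (0.335%) and 127 foxA cells (1.87%). Both genes were thus supplied less by positive cells in the foxA library, and more by others.

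Some members have consecutive identifiers. There were 6 such pairs, among them SMESG000019975.1, the anchor and SMESG000019977.1 as a run, and SMESG000006020.1 beside SMESG000006021.1. These were singled out after their values were seen, and whether the genes of a pair are neighbours, share sequence or share reads was not analysed here. They did not behave alike. SMESG000019975.1 had a whole-library ratio of -0.32 and stood at 6990 and 8791 CPM in positive cells, with 58.5% of its control UMIs there. SMESG000019977.1 had a ratio of -1.54, below the -0.71 from the strata. In positive cells it stood at 4874 and 3772 CPM, a difference of -0.37 (-0.59 to -0.15), an interval that treats its UMIs as independent. Its level outside positive cells was also lower, at 78.4 CPM in the control library and 33.9 CPM in the foxA library. SMESG000006020.1, with 50 and 29 UMIs, was seen in 33 of 145 and 18 of 69 positive cells, in each library more cells than SMESG000006021.1.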

How the data were processed

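Single-cell RNA of planarian trunk cells was measured in 1 control RNAi and 1 foxA RNAi library. The deposited values are raw UMI counts for each gene in each barcode, without scaling. The matrices name Cell Ranger 6.1.2, per the file headers, while the submitters' processing notes list Cell Ranger 7. Genome build, annotation and cell calling settings are not given in the sources used here. Per the labels' protocols, 16S ribosomal cDNA was cut with a set of 30 CRISPR guides, and what remained was amplified for 10 more cycles.

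Cells with at least 200 genes were kept, which removed 78 control and 17 foxA cells. The lowest total per deposited barcode was 286 UMIs in the control and 440 in the foxA library. Doublets were not removed. The libraries shared 13 barcodes, none of them (0) in positive cells. Clusters came from scanpy 1.11.5 (10000 counts per cell, 2000 variable genes, 30 principal components, 15 neighbours, Leiden resolution 0.5, igraph 0.11.9), without integration. CPM were computed from summed counts, and 1 CPM was added before log2. Intervals are exact 95% intervals (Clopper-Pearson for shares, conditional binomial for ratios). The decomposition was tested on simulated data. TMM factors came from edgeR 4.0.16.

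The members, lists and alternatives were chosen with earlier results of these data known. The genes to name were the first 10 members, the 2 on each side of the threshold, and the 2 lowest and 2 highest members over the libraries and within positive cells. Others are said to be singled out.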

Additional observations from a re-analysis of the deposited data

How the results depend on the processing

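No paired analysis was possible because there was only 1 library of each kind, so none could be left out either. The settings that set aside shared barcodes, the deepest control cell, positive cells outside cluster 13 or the cell with 106 UMIs, and the strata from clusters, were chosen after seeing the data. The log2 ratio of the positive share lay between -1.43 and -1.13 in 11 of the 12 other settings. It was 0.0406 (12 control and 14 foxA cells) when positive cells were set by SMESG000006021.1, the gene found in few cells. That setting also gave a median gap between observed and strata ratios of -0.29, a median ratio from the strata of 0.0051, and a median within positive cells of -0.61 over 6 members.

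The median within positive cells was -0.0151 after thinning, -0.0602 in cluster 13, -0.0593 with cells set by the share of the other members (at least 14.9% of UMIs) and -0.053 with the mean CPM per cell. It was 0.27 with at least 440 UMIs and 0.53 among cells with at least 500 genes, where 37 members were higher past 1.5-fold with a background of 26.3% and a median of all genes of 0.21. The cause was not tested. The median gap to the strata ratio was 0.39 with at least 500 genes, 0.11 with strata from clusters and -0.0914 with cells set by the other members.

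The whole-library median was -0.0768 with at least 500 genes per cell, -0.79 for the first 50 members, -0.0841 for the first 200 and 0.0235 when members needed 200 UMIs, a floor that changes which genes are members. The count of members lower past 1.5-fold was 34 of 97 in the main setting. It was 21 of 85 with at least 500 genes, 21 of 62 after thinning and 9 with a floor of 200 UMIs. Past 2-fold it was 20. The floor left the genes compared as they were, with a background of 6.33%. For the other settings the share over all genes is not given here, so their counts cannot be set against a background. After thinning, 64 genes were in both lists of 100 instead of 82. No scaling moved the median of all genes, 0.08, by as much as 0.1. With 145 and 69 positive cells, members present in a few cells cannot be compared firmly.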
